A study of Mus musculus with 15 samples.

Results

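The semaphorin, plexin, Slit, Robo, Unc5 and netrin genes were followed in bulk RNA-seq of endothelial cell (EC) cultures from mouse bone marrow (BM), of lung cultures and of BM mesenchymal stromal cells (MSC). Members were the rows of the count table whose symbol belongs to Sema3 to Sema7, the plexins, Slit1 to Slit3, Robo1 to Robo4, Unc5a to Unc5d or the netrins Ntn1 to Ntn5, and 43 of 44674 genes met this rule. They comprised 7 secreted class 3 semaphorins, 13 membrane-bound semaphorins, 9 plexins, 3 Slits, 4 Robos, 4 Unc5 receptors and 3 netrins (Ntn1, Ntn4 and Ntn5). The cells came from adult mice that the labels give as WT, and by the methods those for EC cultures carried Tie2-CreERT2;Rosa26-tdTomato and had received tamoxifen, so that tdTomato marked cells in which the Tie2 promoter had been active. Whole marrow was cultured in EGM-2 medium, and CD45- tdTomato+ cells were sorted by the surface sialomucin endomucin into P0 Emcn+ and P0 Emcn- bone marrow endothelial cells (BMECs), of which 2 libraries each were made. The Emcn- cultures were also read after passaging, in 2 libraries for each of P1, P2 and P3 and 1 for P4. Lung cultures, Emcn- by the methods, and BM MSC, sorted as CD45- tdTomato+ cells of Osx-Cre;Rosa26-tdTomato mice after culture in MesenCult medium, also had 2 libraries each. In the Osx-Cre mice the Osterix promoter drives the recombinase. A dish usually came from 1 mouse, but the labels tie no library to an animal, so p-values measure the spread between these libraries.

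These families were named for steering axons and also act in vessels. Semaphorins signal through plexins, for which the class 3 members mostly need the co-receptors neuropilin 1 and 2. Slits bind Robo1 and Robo2, Robo4 is the Robo of endothelium, and netrins act through Dcc, neogenin and the Unc5 receptors. In vessels, Plxnd1 receives Sema3e, and Unc5b is known for restraining sprouting.

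Levels are given as CPM, counts scaled to a library's total count. Totals ran from 9914620 to 39718807 counts, so that the upper limit behind a count of 0, set at 3 counts, lay at 0.303 CPM in the shallowest library and at 0.0755 CPM in the deepest, for counting error only. Emcn itself stood at 631 and 798 CPM in the Emcn+ fraction of P0, at 12.7 and 2.52 CPM in the Emcn- fraction and at 32.6 and 125 CPM in lung. A list of 9 endothelial markers, among them Cdh5 and Pecam1, summed to 10186 to 12227 CPM in P0 Emcn+ libraries, against 69.4 to 265 CPM in P0 Emcn-, 158 to 585 CPM in lung, 44.7 to 70.3 CPM in P1 to P4 and 42.2 to 351 CPM in BM MSC. A list of 8 mesenchymal markers ran the other way, with 235 to 298 CPM in P0 Emcn+ and 16324 to 21165 CPM in P0 Emcn-. Thus the libraries labelled Emcn- BMEC carried defining endothelial transcripts at a small fraction of the P0 Emcn+ level, and the label is kept here as a name only. Cdh5, the endothelial cadherin, was at 119 and 6.35 CPM in the P0 Emcn- replicates and at 7.86 and 156 CPM in the BM MSC replicates, so P0 Emcn- replicate 1 and BM MSC replicate 2 held more endothelial transcripts than their partners. A list of 8 macrophage and blood markers summed to 555 to 560.5 CPM in P0 Emcn+ and 195 to 236 CPM in P0 Emcn-. In bulk libraries, fewer cells of a type and less RNA per cell cannot be told apart.

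Of the 43 guidance genes, 33 reached 5 CPM in at least 1 library. The other 10 stayed lower throughout. These were Plxnc1 with at most 4.82 CPM, Slit1 with 3.23, Sema4d with 2.41, Sema4a with 1.79, Sema4f with 1.29, Sema5b with 0.761, Unc5d with 0.634, Robo3 with 0.580, Plxnb3 with 0.440 and Ntn5 with 0.0504. Ntn5 had 5 counts in all and failed the filter on low counts, which left 42 members among 19401 genes tested. By mean CPM, 16 of the 42 were highest in P0 Emcn+ BMECs and 14 in BM MSC, while P0 Emcn- held the highest mean of 3, lung of 3, P1 of 1, P2 of 2, P3 of 1 and P4 of 2.

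**Figure D1:**
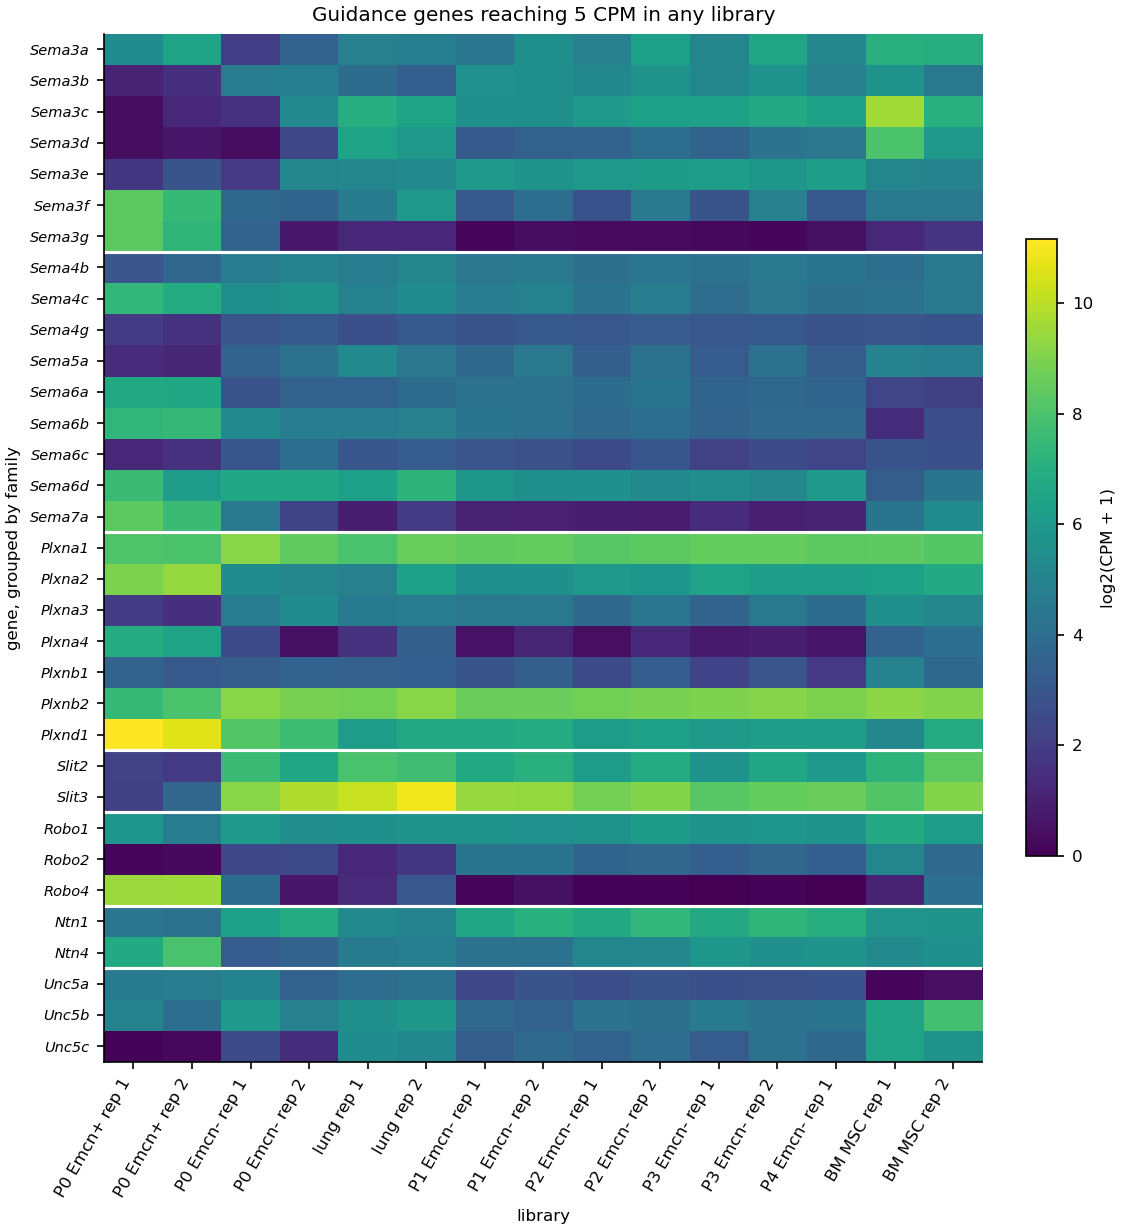
Heat map of log2(CPM + 1) for the 33 guidance genes that reached 5 CPM in any library (rows, grouped by family, white lines between families) in the 15 libraries (columns). Robo4, Sema3g, Sema7a and Plxnd1 are brightest in both P0 Emcn+ libraries, where Slit2 and Slit3 are dark.

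The sort on endomucin asks how the Emcn+ and Emcn- fractions of the P0 cultures differ. P0 Emcn+ BMECs expressed another set of guidance receptors and ligands than P0 Emcn- BMECs, with Robo4, Plxnd1, Plxna2, Plxna4, Sema3g, Sema3f, Sema7a and Ntn4 higher and Slit2, Slit3, Sema3b, Sema3c and Plxna3 lower. Of these, the difference in Sema3c depended on single libraries. A member was called where edgeR's quasi-likelihood test gave a p below 0.05 after Benjamini-Hochberg adjustment with a log2 fold change beyond 1.5 either way. By this rule 14 of 42 members were higher (33.3%), beside 7.79% of all genes tested, and 12 were lower (28.6%), beside 11.4% of all genes. The median log2 fold change was -0.19 over the members and -0.06 over all genes. CPM did not overlap between the groups for 15 members that were higher and 17 that were lower, beside 27.8% and 33.6% of all genes, and the adjusted p alone was passed by 14 higher and 14 lower members, beside 15.6% and 18.5%. By family, 3 of 9 plexins, 3 of 7 secreted and 4 of 13 membrane semaphorins, 2 of 4 Robos, 1 of 2 netrins and 1 of 4 Unc5 receptors were higher. Lower were 1 of the plexins, 2 of the secreted and 4 of the membrane semaphorins, 1 each of the Robos, netrins and Unc5 receptors, and 2 of 3 Slits, of which none was higher. All 26 calls had the same direction within each of the 2 batches that hold 1 library of either population. The calls were made on these same libraries, so this direction adds no separate evidence.

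**Figure D2:**
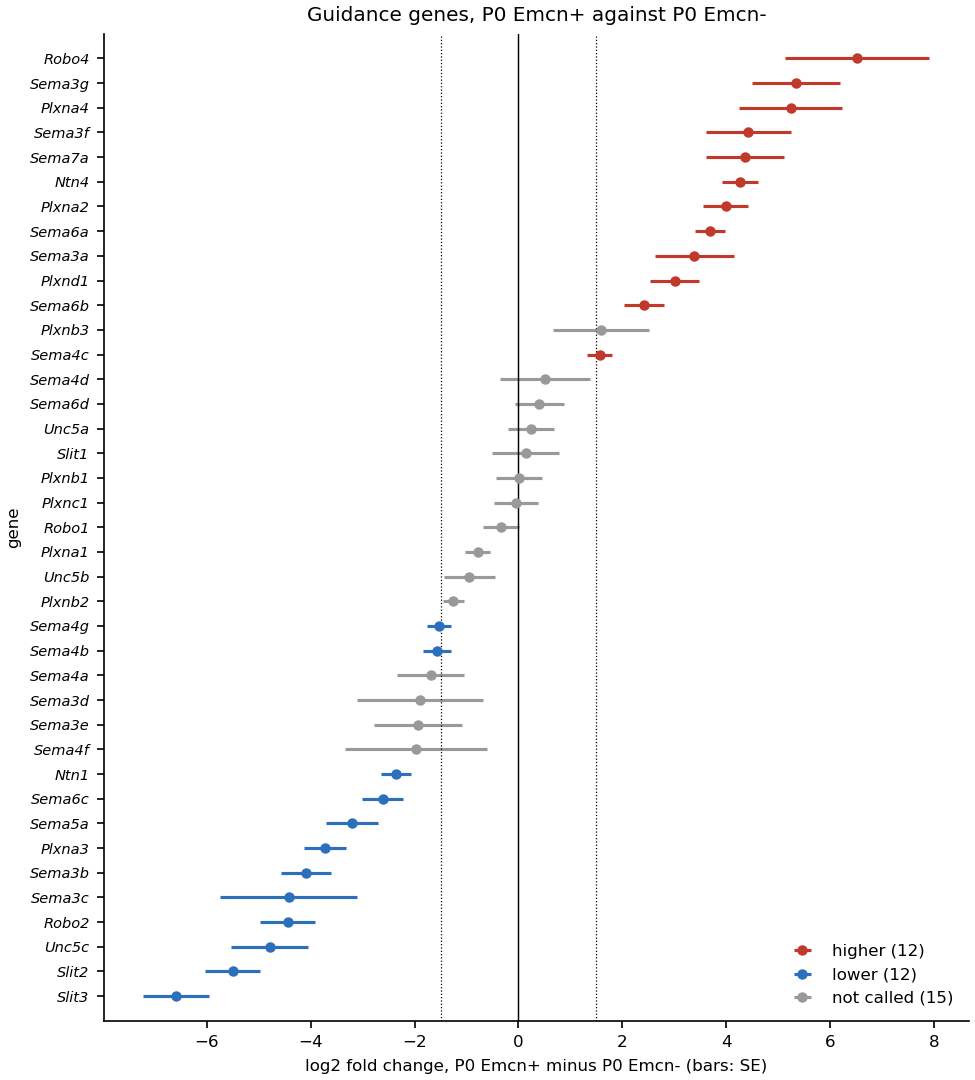
Log2 fold change of P0 Emcn+ against P0 Emcn- BMECs (points) with its SE (bars) for 39 tested guidance genes, sorted by size, with red and blue for called genes and grey for the others. Dotted lines mark 1.5, and Robo3, Unc5d and Sema5b, which had 0 counts in a whole group, are not drawn. The extremes are Robo4 at 6.52 and Slit3 at -6.59.

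Among the receptors, Robo4 stood at 713 and 734 CPM in the P0 Emcn+ replicates against 14.1 and 0.605 CPM in P0 Emcn-. This endothelial Robo was the member with the largest fitted increase apart from 2 genes with 0 counts in P0 Emcn- (log2 fold change 6.52, SE 1.39, edgeR adjusted p = 0.00475). Plxnd1, the receptor of Sema3e and the member the study lists among its tip cell genes, measured 2274 and 1602 CPM in the Emcn+ fraction and 286 and 208 CPM in the Emcn- fraction, a log2 fold change of 3.01 (SE 0.46, edgeR adjusted p = 0.000736). It had the highest CPM of any member in any library, and in P0 Emcn- libraries it lay above the lung and passaged ones. Against P0 Emcn-, though, Plxnd1 was called neither in lung nor at P1, and P0 and P1 share no batch. Plxna2, a receptor of class 6 semaphorins, rose from 42.5 and 32.9 CPM to 499 and 674 CPM (log2 fold change 3.99, SE 0.44, edgeR adjusted p = 8.57e-05). Plxna4, which pairs with neuropilin 1 for Sema3a, rose from 4.46 and 0.403 CPM to 117 and 85.2 CPM (log2 fold change 5.24, SE 0.99, edgeR adjusted p = 0.00242). In the opposite direction, Plxna3, a partner of neuropilin 2 for Sema3f, stood lower in the Emcn+ fraction, at 2.88 and 1.93 CPM against 24.9 and 41.1 CPM (log2 fold change -3.72, SE 0.40, edgeR adjusted p = 7.89e-05). The P0 groups did not overlap for any of these 5 receptors.

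Robo1, Plxna1 and Plxnb2 were not called between the P0 fractions. Robo1 overlapped between the fractions, with 57.9 and 25.8 CPM for Emcn+ against 63.1 and 45.2 CPM for Emcn- (log2 fold change -0.34, edgeR adjusted p = 0.503). Plxna1 and Plxnb2, receptors of wide expression, passed the adjusted p of edgeR but not the fold change limit, with log2 fold changes of -0.78 (adjusted p = 0.0308) and -1.25 (adjusted p = 0.00114). Genes were compared on the scale of CPM per kb of annotated exon, taken over the union of all annotated exons of a gene. This union can be longer than the transcripts expressed, which lowers the level per kb, and it was 16511 bases for Robo1 and 5302 for Robo4. On this scale Plxnd1 made up 72.2% of the summed plexin level in P0 Emcn+ BMECs, whereas Plxnb2 led in each other condition with 42.3% to 55.6%. Robo4 made up 98.1% of the Robo level per kb in P0 Emcn+, and Robo1 led elsewhere with 64.4% to 84.8%. In P0 Emcn- the mean share of Robo1 was 72.3%.

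**Figure D3:**
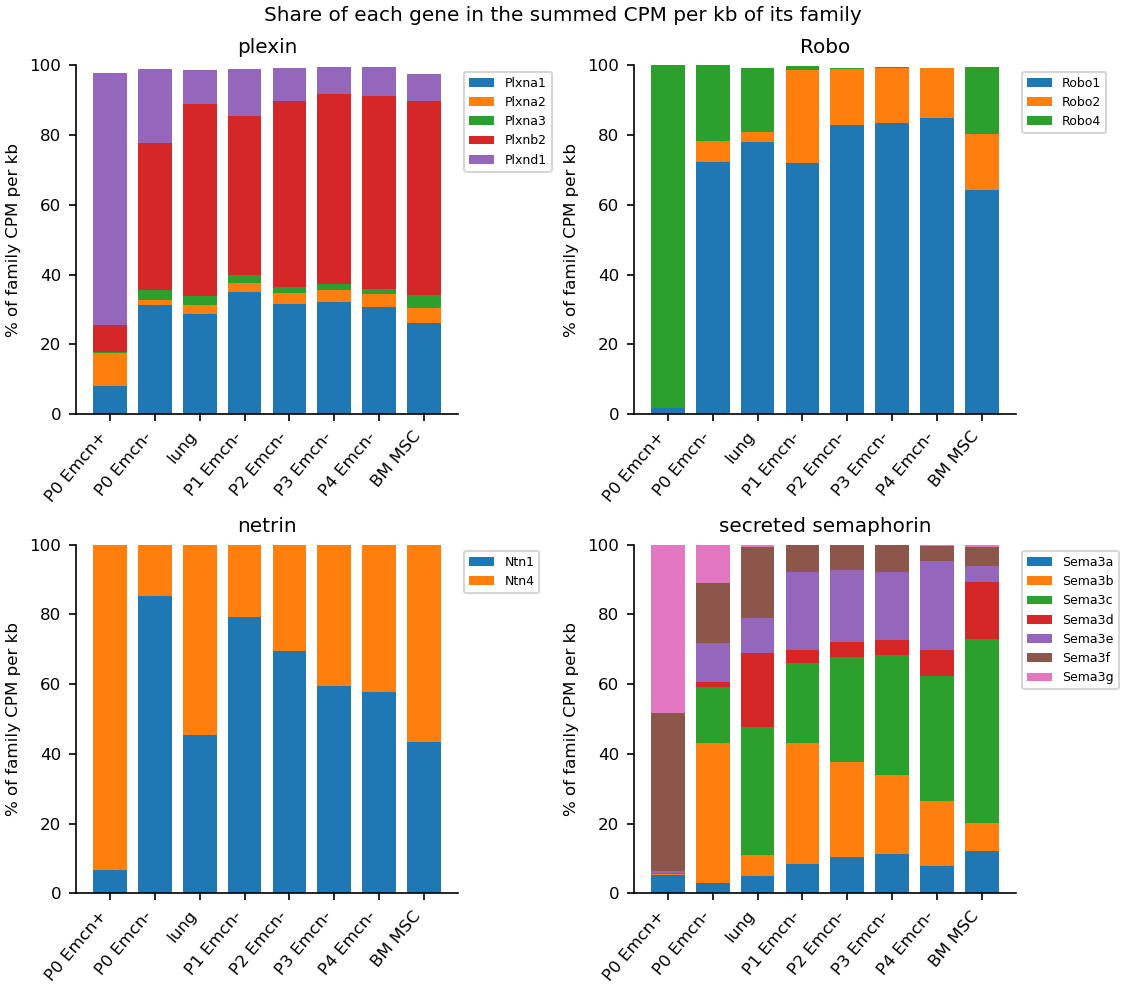
Share of each gene in the summed CPM per kb of its family (vertical axis, percent, mean over a condition's libraries) in the 8 conditions, for plexins, Robos, netrins and secreted semaphorins, with genes that stay under 2% in every condition left out. P0 Emcn+ is led by Plxnd1, Robo4, Ntn4 and Sema3g, and these leaders differ from those of P0 Emcn-, which are Plxnb2, Robo1, Ntn1 and Sema3b.

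The Slit ligands showed the largest falls. Slit3 (GRCm38 chr11:35121224-35708507), with 572 and 901 CPM in P0 Emcn-, was at 3.36 and 11.7 CPM in the Emcn+ fraction (log2 fold change -6.59, SE 0.63, edgeR adjusted p = 3.71e-05). Slit2 (chr5:47983138-48307733) was at 3.42 and 2.71 CPM in P0 Emcn+ against 191 and 93.5 CPM (log2 fold change -5.50, SE 0.53, edgeR adjusted p = 3.99e-05). Summed over the 3 Slits, P0 Emcn+ libraries had a mean of 11.1 CPM and P0 Emcn- libraries one of 879 CPM, and each Slit sum of the other 6 conditions lay at 358 CPM or above. Thus the condition with the highest Robo4 had the lowest Slit level. Robo2, a Slit receptor, also fell, from 4.33 and 4.44 CPM to 0.158 and 0.232 CPM.

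Among the ligands that were higher, Sema3g, a class 3 semaphorin that binds neuropilin 2, measured 326 and 155 CPM in the Emcn+ fraction against 10.4 and 0.706 CPM (log2 fold change 5.34, SE 0.85, edgeR adjusted p = 0.000852). Sema3f, another neuropilin 2 ligand, measured 327 and 177 CPM against 12.8 and 11.2 CPM (log2 fold change 4.42, SE 0.82, edgeR adjusted p = 0.00211). Sema7a, the semaphorin held by a glycolipid anchor, measured 327 and 192 CPM against 21.1 and 3.83 CPM (log2 fold change 4.36, SE 0.75, edgeR adjusted p = 0.00141). All 3 were higher in replicate 1 than in replicate 2 of P0 Emcn+, and the groups did not overlap for any of them. Ntn4, a netrin of basement membranes, measured 111 and 248 CPM against 8.41 and 10.8 CPM (log2 fold change 4.27, SE 0.35, edgeR adjusted p = 1.4e-05). Sema3b and Sema3c, which also belong to the class 3 ligands, went the other way. Sema3b was at 1.11 and 1.93 CPM against a mean of 26.2 CPM, with the P0 Emcn- replicates close together (log2 fold change -4.08, SE 0.48, edgeR adjusted p = 0.000128). Sema3c was at 0.349 and 1.47 CPM against 2.01 and 38.5 CPM, where the P0 Emcn- replicates themselves lay far apart (log2 fold change -4.43, SE 1.32, edgeR adjusted p = 0.0258). In a fit of P0 Emcn+ and P0 Emcn- alone it was not called (edgeR adjusted p = 0.103). Sema3c was no longer called once P0 Emcn- replicate 2 was left out (-1.16, adjusted p = 0.48), and the same held for P0 Emcn+ replicate 1 (-3.67, adjusted p = 0.152) and P0 Emcn+ replicate 2 (-5.73, adjusted p = 0.0647).

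The remaining calls comprised Sema6a, Sema3a, Sema6b and Sema4c, which were higher with log2 fold changes of 3.68, 3.39, 2.41 and 1.56, and Unc5c, Robo2, Sema5a, Sema6c, Ntn1, Sema4b and Sema4g, which were lower with log2 fold changes of -4.79 to -1.52. Robo3 and Unc5d had no count in either P0 Emcn- library and 31 counts each over the P0 Emcn+ libraries, at least 8.93-fold higher against 3 counts over the group. Both calls depended on single libraries, since Robo3 failed when P0 Emcn- replicate 1 was left out (adjusted p = 0.107) and Unc5d when any of the 4 P0 libraries was (adjusted p = 0.0578 to 0.182). Sema4c, Sema4b and Sema4g, with fitted values close to the fold change limit, kept an adjusted p of 0.00875 or below but fell under the limit with certain libraries left out. Sema4c dropped to 1.28 if P0 Emcn+ replicate 1 was omitted and to 1.49 if P0 Emcn- replicate 1 was. Sema4b went to -1.20 on omitting P0 Emcn+ replicate 1 and to -1.44 on omitting P0 Emcn- replicate 2. Sema4g went to -1.32 on omitting P0 Emcn+ replicate 2 and to -1.39 on omitting P0 Emcn- replicate 2. Not called were 16 members, Robo1, Plxna1, Plxnb1, Plxnb2, Plxnb3, Plxnc1, Unc5a, Unc5b, Slit1, Sema3d, Sema3e, Sema4a, Sema4d, Sema4f, Sema5b and Sema6d. Sema3e, the ligand of Plxnd1, measured 2.50 and 6.42 CPM in P0 Emcn+ against 2.64 and 33.4 CPM in P0 Emcn- (edgeR adjusted p = 0.107). It was called lower once P0 Emcn- replicate 1 was left out (-2.86, adjusted p = 0.00075), as was Sema3d (-3.17, adjusted p = 0.0352), and Plxnb2 without P0 Emcn+ replicate 2 (-1.52, adjusted p = 0.00168).

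The rise of Robo4, Sema3g, Plxna4 and Sema7a rested on small values in P0 Emcn- that moved with the endothelial markers there. Robo4 was at 1.96% of its mean P0 Emcn+ level in P0 Emcn- replicate 1 and at 0.0837% in replicate 2, while the summed endothelial markers were at 2.36% and 0.619%. The log2 fold change of Robo4 was 10.27 with P0 Emcn- replicate 1 left out and 5.71 with replicate 2 of that group left out, so of the P0 libraries replicate 1 of Emcn- moved the fitted value most. The same held for Sema3g (8.46 and 4.56), Plxna4 (8.01 and 4.54) and Sema7a (6.13 and 3.65), all 4 of which kept their call in each of these fits with an adjusted p of at most 0.0189. Plxnd1 moved less between these replicates. It stood at 14.8% and 10.7% of its mean P0 Emcn+ level in the P0 Emcn- replicates, above the share of the endothelial markers in either library, and its log2 fold change stayed between 2.74 and 3.27 whichever P0 library was left out. This was not particular to Plxnd1. Sema7a, at 8.13% and 1.48%, and Plxna2, at 7.24% and 5.60%, also lay above the marker share in both libraries. The log2 fold change of Plxna2 stayed between 3.77 and 4.21. Not all members that were higher moved with the markers. As a share of its mean P0 Emcn+ level, Ntn4 went from 4.69% in P0 Emcn- replicate 1 to 6.02% in replicate 2. Sema6a, Sema3a and Sema4c rose likewise, and Sema3f, Plxna2 and Sema6b fell by a smaller factor than the markers. The part of endothelial transcripts in these P0 Emcn- levels was not tested.

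**Figure D4:**
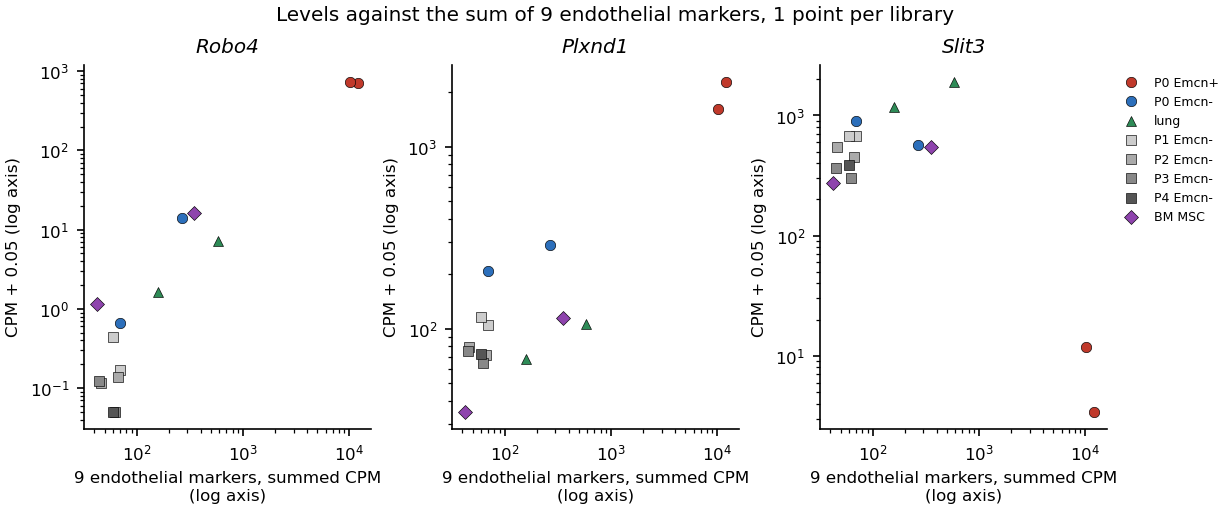
CPM of Robo4, Plxnd1 and Slit3 (vertical log axes, 0.05 added) against the summed CPM of 9 endothelial markers (horizontal log axis) in the 15 libraries, 1 point each, with colour and symbol for the condition. Both P0 Emcn+ libraries lie at the far right with 10186 and 12227 CPM of markers, high for Robo4 and Plxnd1 and low for Slit3, and among the rest Robo4 lies highest in P0 Emcn- replicate 1, BM MSC replicate 2 and lung replicate 2.

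Because 14 members were higher together, the bases before their transcription starts were searched on both strands for AGGAAG and CCGGAA, which hold the core that ETS factors bind, for TGTTTAC, a forkhead sequence, and for ACAAAG, a SOX sequence. RefSeq promoters of 300 bases on GRCm38.p6 (250 before the start, 50 after it) matched 10 of the 14 genes with 12 promoters. AGGAAG occurred in 7 of the 12 (58.3%), beside 35.4% of 32851 promoters of all genes and 6 of 14 promoters (42.9%) of the members that were lower. CCGGAA and TGTTTAC occurred in none of the 12, beside 14.9% and 3.65% of all promoters, and ACAAAG in 1 of them (8.33%), beside 18.7%. The genes with AGGAAG were Ntn4, Plxnd1, Robo3, Robo4, Sema3a, Sema3g and Sema6b. A match is a description of the letters, not a binding site. The stretches before the starts are shown for Plxnd1, Robo4 and Sema3g, which hold the motif and lead the plexins, Robos and secreted semaphorins per kb in P0 Emcn+, with AGGAAG or its reverse complement in capitals. Ntn4, which leads the netrins there, also holds it, and Sema7a, which leads the membrane semaphorins, does not.
Plxnd1, chr6:115995006-115995255, minus strand, all 250 bases before the start, with AGGAAG beginning 203 and 180 bases before it: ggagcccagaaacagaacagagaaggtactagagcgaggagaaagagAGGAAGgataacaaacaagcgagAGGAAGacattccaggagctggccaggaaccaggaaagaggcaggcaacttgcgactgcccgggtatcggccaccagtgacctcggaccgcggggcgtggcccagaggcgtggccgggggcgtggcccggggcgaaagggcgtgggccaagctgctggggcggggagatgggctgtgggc
Sema3g, chr14:31217623-31217859, plus strand, up to the first annotated exon, with the motif on the other strand beginning 89 bases before the start: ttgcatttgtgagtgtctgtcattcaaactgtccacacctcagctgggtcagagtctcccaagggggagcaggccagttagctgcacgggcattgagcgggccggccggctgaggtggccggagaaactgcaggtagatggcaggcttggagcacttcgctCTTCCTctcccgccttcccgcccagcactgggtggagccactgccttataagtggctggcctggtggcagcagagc
Robo4, chr9:37401913-37401938, plus strand, only the bases around the motif, which begins 49 bases before the RefSeq start and lies in an exon of other annotated Robo4 transcripts: agggccaggcAGGAAGcatccgtttc

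The co-receptors and the cell's interior partners formed lists of 18 and 27 genes. Of 17 co-receptors tested, 4 were higher in P0 Emcn+ and 4 lower, and of 26 intracellular mediators 4 were higher and 3 lower, beside 7.79% of all genes higher and 11.4% lower. The median log2 fold change was -0.34 over the co-receptors and 0.56 over the mediators, beside -0.06 over all genes. Nrp2, the neuropilin that serves Sema3f and Sema3g, was among the higher ones at a mean of 994 CPM against 143 CPM (log2 fold change 2.83, SE 0.41, edgeR adjusted p = 0.000481). Met, Flrt3 and Itga1 were also higher, and Gpc1, Rgma and Neo1, the netrin and repulsive guidance molecule receptor neogenin, were lower, as was Flrt1 at 2.17 CPM in P0 Emcn-. The mediators that were higher were Crmp1 and Dpysl3, both of the collapsin response mediator family, Rnd1, a small GTPase that binds plexins, and Fyn, a kinase of netrin and semaphorin signalling, with log2 fold changes of 5.17, 3.00, 4.74 and 2.00. Those that were lower were Sh3bp1, the Slit-Robo GTPase activating protein Srgap3, and Farp2, with log2 fold changes of -3.41, -2.07 and -1.92. Dcc, the classical netrin receptor, had at most 0.497 CPM in any library.

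**Figure D5:**
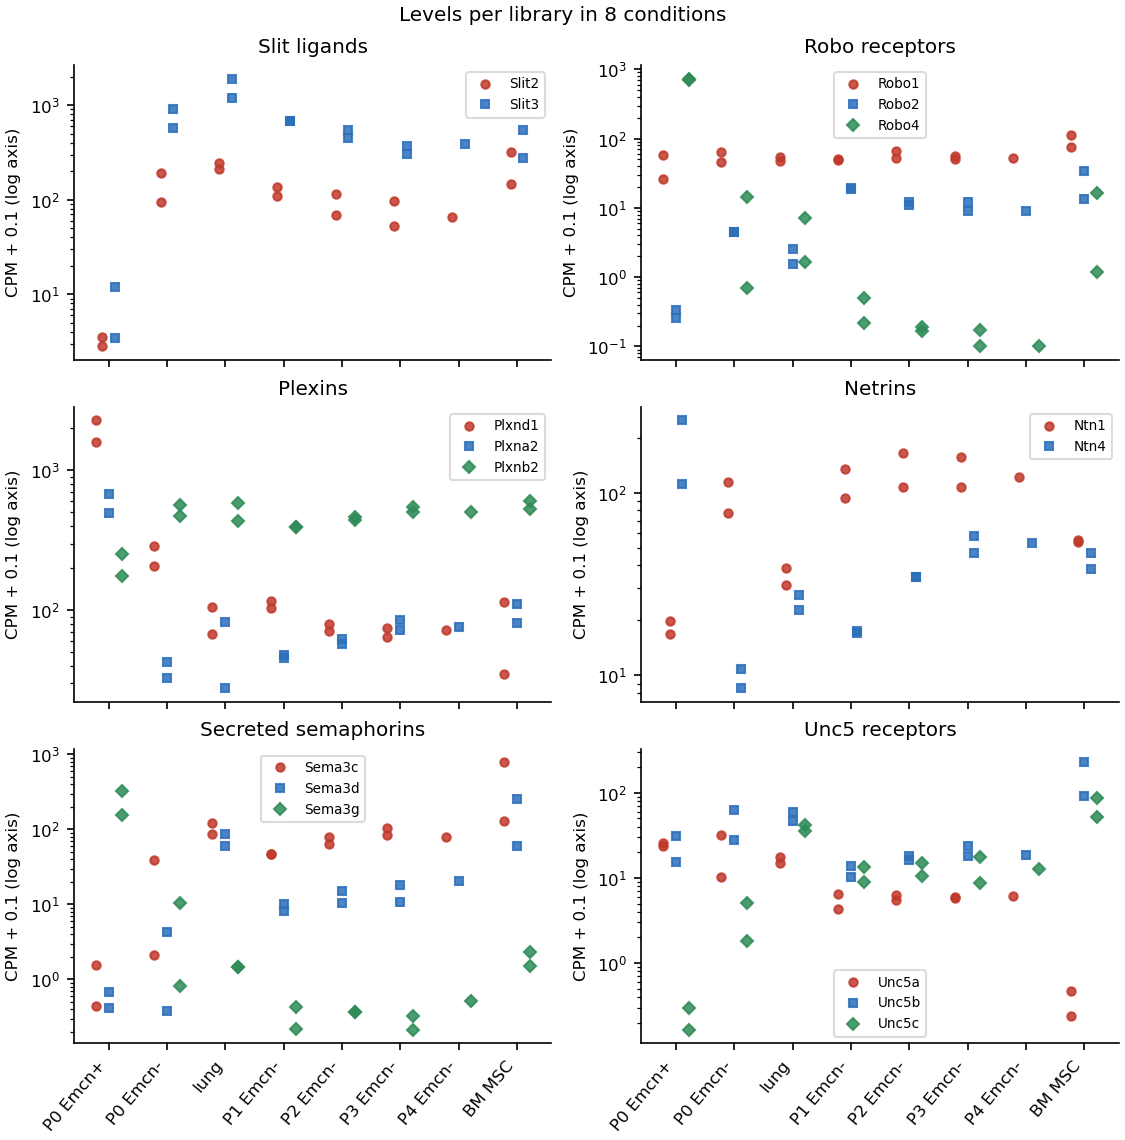
CPM per library (log axes, 0.1 added, 1 point per library) of 16 guidance genes of 6 families in the 8 conditions on the horizontal axis. Slit3 is lowest and Robo4 highest in P0 Emcn+, Ntn4 stands at 17.0 and 17.5 CPM at P1 and at 58.1 and 46.7 CPM at P3, and Sema3c, Sema3d and Unc5c have their highest means in BM MSC.

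The lung comparison asks whether Emcn- cultures of another organ differ from those of marrow. Lung cultures were higher in Sema3d and Unc5c, and no member was called lower. The 2 calls higher were 4.76% of the members, beside 2.13% of all genes, and the 0 calls lower stood beside 1.7% of all genes. At an unadjusted p under 0.05 in edgeR, 10 members were higher and 9 lower, and DESeq2 called 3 higher and 1 lower. The share of all genes was not counted for either, so these counts have no reference. The median log2 fold change was 0.06 over the members and 0 over all genes. The adjusted p alone was passed by 3 higher and 1 lower member, beside 3.08% and 2.29% of all genes, and CPM did not overlap for 13 higher and 11 lower members, beside 17% and 23%. Sema3d, a secreted semaphorin, measured 87.8 and 59.8 CPM in lung against 0.277 and 4.14 CPM (log2 fold change 5.51, SE 1.06, edgeR adjusted p = 0.0156). Unc5c, a repulsive netrin receptor, measured 41.6 and 35.7 CPM in lung against 5.04 and 1.71 CPM (log2 fold change 3.49, SE 0.54, edgeR adjusted p = 0.00625). Lung lay above P0 Emcn- for both genes within each of the 2 shared batches. The Sema3d call was lost without lung replicate 1 (log2 fold change 5.20, adjusted p = 0.0536), and both calls were lost in a fit of these 2 groups alone (adjusted p = 0.146 and 0.0655).

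The netrins differed in the lung comparison at the adjusted p but within the fold change limit. Ntn4 was at 22.6 and 27.3 CPM in lung against 8.41 and 10.8 CPM (log2 fold change 1.46, edgeR adjusted p = 0.0273), and Ntn1 at 38.6 and 30.9 CPM against 76.8 and 114 CPM (log2 fold change -1.38, edgeR adjusted p = 0.0199). Per kb, Ntn4 made up 54.6% of the netrin level in lung, whereas Ntn1 made up 85.3% in P0 Emcn-. Slit3 had its highest level of any condition in lung, 1179 and 1907 CPM, which did not overlap the P0 Emcn- values and did not pass the test (log2 fold change 1.13, edgeR adjusted p = 0.266). Plxnd1 measured 67.8 and 106 CPM (log2 fold change -1.45, SE 0.44, edgeR adjusted p = 0.0992). With a replicate block for the shared batches Sema3a, at 28.2 and 27.1 CPM in lung against 3.02 and 10.5 CPM, was also called (log2 fold change 2.40, adjusted p = 0.00955). Without P0 Emcn- replicate 2, the number called higher rose to 4, with Sema3c (5.77, adjusted p = 0.028) and Sema3e (3.85, adjusted p = 0.00479) added, and Sema3g (-2.88, adjusted p = 0.0099) and Sema7a (-3.50, adjusted p = 0.013) were called lower. Of the partner genes, Nrp2 was lower in lung at a mean of 35.1 CPM against 143 CPM (log2 fold change -1.95, SE 0.40, edgeR adjusted p = 0.0205), and none of the other 16 co-receptors or of the 26 mediators tested was called. Over all genes, 2.13% were called higher and 1.7% lower.

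The first passage was compared with P0 Emcn- BMECs. At P1, Sema3a, Robo2 and Unc5c were higher and Sema3g, Sema7a, Unc5a and Unc5b were lower. The 3 calls higher were 7.14% of the members, beside 5.77% of all genes, and the 4 lower 9.52%, beside 3.07%. The median log2 fold change was -0.15 over the members and 0.02 over all genes. By the adjusted p alone 4 members were higher and 4 lower, beside 10% and 7.43% of all genes, and 12 and 17 members did not overlap, beside 26.1% and 35.3%. P0 and P1 libraries share no batch in the labels, so batch and passage cannot be told apart. A list of 8 mesenchymal or fibroblast markers summed to 16324 to 21165 CPM in P0 Emcn- and 6035 to 6704 CPM at P1, and a list of 6 mural markers to 178 to 302 CPM and 71.4 to 71.7 CPM, with no marker at 0, and their part in these differences was not tested. In a fit of P0 Emcn- and P1 alone the calls other than Robo2 were lost (adjusted p = 0.0815 to 0.122). Robo2, a Slit receptor, measured 19.3 and 18.6 CPM at P1 and 4.33 and 4.44 CPM at P0 (log2 fold change 2.27, SE 0.41, edgeR adjusted p = 0.00591). This was the call that held whichever of the 4 libraries was left out, with log2 fold changes of 2.22 to 2.32. At its weakest it lay only just inside the limit on the adjusted p. Sema3a, a ligand of neuropilin 1 and plexins of class A, measured 20.0 and 46.6 CPM against 3.02 and 10.5 CPM (log2 fold change 2.54, SE 0.75, edgeR adjusted p = 0.0434). Unc5c measured 8.80 and 13.5 CPM against 5.04 and 1.71 CPM (log2 fold change 1.78, SE 0.51, edgeR adjusted p = 0.04).

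All 4 members that were lower at P1 stood higher in P0 Emcn- replicate 1 than in replicate 2. Sema3g was at 0.119 and 0.323 CPM at P1 (log2 fold change -4.65, SE 1.01, edgeR adjusted p = 0.0136) and Sema7a at 1.07 and 1.04 CPM (log2 fold change -3.46, SE 0.78, edgeR adjusted p = 0.0164). Unc5a and Unc5b, both netrin receptors, were at 4.25 and 6.35 CPM against 31.6 and 10.2 CPM, and at 13.6 and 10.1 CPM against 62.8 and 27.8 CPM. Their log2 fold changes were -1.85 (SE 0.46, edgeR adjusted p = 0.0231) and -1.78 (SE 0.50, edgeR adjusted p = 0.0361). Without P0 Emcn- replicate 1, the library with more endothelial transcripts, all 4 of these calls and that of Sema3a were lost, with adjusted p-values of 0.187 to 0.342 and log2 fold changes of -1.56 for Sema3g, -1.70 for Sema7a, -0.80 for Unc5a, -1.07 for Unc5b and 1.81 for Sema3a, while that of Unc5c rose to 2.84. Without P1 replicate 1 or P1 replicate 2 the calls other than Robo2 were lost too (adjusted p = 0.0689 to 0.158 and 0.0633 to 0.193), and without P0 Emcn- replicate 2 that of Unc5c (1.27, adjusted p = 0.115), while Sema6a, Sema3c, Sema3d and Sema3e were gained as higher and Robo4 as lower, which made 6 higher and 5 lower. Plxnd1 measured 104 and 116 CPM at P1 (log2 fold change -1.01, SE 0.44, edgeR adjusted p = 0.131). Slit3, at 681 and 678 CPM, lay between the P0 Emcn- values (log2 fold change 0.04, edgeR adjusted p = 0.975). Among the partner genes Flrt2 and Flrt3, ligands of Unc5 receptors, were higher and Gpc1, a proteoglycan that binds Slits, was lower, with log2 fold changes of 1.70, 1.63 and -1.67, and no mediator was called. These came from 17 co-receptors and 26 mediators tested, beside 5.77% of all genes called higher and 3.07% lower.

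From P1 to P3 no member was called by edgeR in either direction, beside 0.0773% of all genes higher and 0.144% lower. At an unadjusted p under 0.05, 5 members were higher and 2 lower, and DESeq2 called 1 in each direction, Ntn4 and Plxnc1. For these counts too the share of all genes was not counted. The adjusted p alone gave 0 in either direction, beside 0.0979% and 0.191% of all genes, and CPM did not overlap for 11 higher and 12 lower members, beside 23% and 29.4%. Ntn4 came closest. It measured 17.0 and 17.5 CPM at P1, 34.3 in both libraries at P2, 58.1 and 46.7 CPM at P3 and 53.1 CPM in the P4 library (P3 against P1, log2 fold change 1.64, SE 0.31, edgeR adjusted p = 0.0658), and it was called with the replicate block (1.63, adjusted p = 0.0276). Slit3 ran the other way without passing the test, with 449 and 549 CPM at P2, 304 and 369 CPM at P3 and 386 CPM at P4 (P3 against P1, log2 fold change -0.98, edgeR adjusted p = 0.426). Plxnd1 stood at 71.4 and 79.6 CPM at P2, 64.6 and 74.8 CPM at P3 and 72.2 CPM at P4 (P3 against P1, log2 fold change -0.63, SE 0.43, edgeR adjusted p = 0.586). P2 was tested only as part of the mean of P1 to P3, and the single P4 library entered no test. Sema3c, which led the secreted semaphorins per kb from P2 on with 29.9% to 35.6%, measured 47.1 and 46.6 CPM at P1, 83.1 and 106 CPM at P3 and 80.0 CPM at P4. Robo4 was at 0.0875 CPM or less in each library of P2 to P4. The median log2 fold change from P1 to P3 was 0.10 over the members and -0.01 over all genes, and none of 17 co-receptors and 26 mediators was called. A list of 5 osteolineage markers summed to 1424 to 1759 CPM at P1 and 5388 to 5593 CPM at P3, and its part in these levels was not tested.

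Some genes differed between the 2 replicates of the passaged cultures, which are also the 2 batches, at every passage. Sema3a measured 20.0, 27.7 and 33.0 CPM in replicate 1 of P1, P2 and P3 and 46.6, 76.4 and 95.3 CPM in replicate 2, and the P4 library, which shares the batch of the former, had 34.7 CPM. Sema3f measured 7.70, 6.04 and 6.41 CPM in replicate 1 against 15.1, 21.1 and 28.4 CPM in replicate 2, and 7.34 CPM at P4. Slit2 and Ntn1 were likewise higher in replicate 2 at each passage. These 4 genes were picked from the members. Plxnd1 and Plxna4 were also higher in replicate 2 at each passage, and Slit3 was not at P1. How many members and what share of all genes keep such a direction was not counted. The passages are not independent here, since their deviations correlated at 0.538 to 0.718. Replicate and batch coincide in P1 to P3, so their parts in these levels cannot be told apart, and neither was tested.

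BM MSC served as the mesenchymal reference. Against P0 Emcn- BMECs they were higher in the secreted semaphorins Sema3a, Sema3c and Sema3d, in the netrin receptors Unc5b and Unc5c, in Robo2 and in Ntn4, and lower in Unc5a, Sema6b, Sema6d, Plxnc1 and Plxnd1. The 10 calls higher were 23.8% of the members, beside 11.3% of all genes, and the 5 lower 11.9%, beside 7.45%. The median log2 fold change was 0.84 over the members and 0.01 over all genes. CPM did not overlap for 18 higher and 12 lower members, beside 32.5% and 35% of all genes, and 12 and 7 members passed the adjusted p alone, beside 19% and 16.3%. These groups share no batch, so batch and population cannot be told apart. In a fit of these groups alone 7 members were called higher and 4 lower, since Sema3d (6.56, adjusted p = 0.0551), Sema3c (4.63, adjusted p = 0.13), Unc5b (1.89, adjusted p = 0.0925) and Plxnd1 (-1.66, adjusted p = 0.118) were lost. The 6 mural markers summed to 1031 to 1299 CPM in BM MSC and 178 to 302 CPM in P0 Emcn-, and their part in these differences was not tested. Sema3d had 256 and 60.4 CPM in BM MSC against 0.277 and 4.14 CPM (log2 fold change 6.65, SE 1.10, edgeR adjusted p = 0.00153), and leaving out 1 library moved the fold change from 5.15 without BM MSC replicate 1 to 9.22 without P0 Emcn- replicate 2. Sema3c had 785 and 131 CPM against 2.01 and 38.5 CPM (log2 fold change 4.67, SE 1.22, edgeR adjusted p = 0.0145), and the call was lost without BM MSC replicate 1 (2.82, adjusted p = 0.0954). Without P0 Emcn- replicate 2 the fold change of Sema3c rose to 7.92. Sema3d and Sema3c were both several times higher in BM MSC replicate 1 than in replicate 2, whereas Sema3a was even, with 126 and 122 CPM against 3.02 and 10.5 CPM (log2 fold change 4.38, SE 0.80, edgeR adjusted p = 0.00254).

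Among the receptors, Unc5c had 87.5 and 51.6 CPM in BM MSC against 5.04 and 1.71 CPM in the Emcn- fraction of P0 (log2 fold change 4.37, SE 0.56, edgeR adjusted p = 0.000375). Unc5a fell to 0.140 and 0.365 CPM from 31.6 and 10.2 CPM (log2 fold change -6.29, SE 0.60, edgeR adjusted p = 6.57e-05). Unc5b had 91.1 and 227 CPM against 62.8 and 27.8 CPM (log2 fold change 1.88, SE 0.49, edgeR adjusted p = 0.0151), a call lost without P0 Emcn- replicate 2 (1.39, adjusted p = 0.083) and without BM MSC replicate 2 (1.11, adjusted p = 0.128). The Unc5 receptors thus changed in opposite directions. Robo2 had 34.2 and 13.5 CPM against 4.33 and 4.44 CPM (log2 fold change 2.55, SE 0.42, edgeR adjusted p = 0.00146), with 1.68 without BM MSC replicate 1, and Ntn4 had 38.2 and 46.8 CPM against 8.41 and 10.8 CPM (log2 fold change 2.25, SE 0.32, edgeR adjusted p = 0.000743). Plxnd1 had 34.7 and 114 CPM against 286 and 208 CPM (log2 fold change -1.66, SE 0.44, edgeR adjusted p = 0.0162), which ended without P0 Emcn- replicate 1 (-1.42, adjusted p = 0.0715) and fell under the fold change limit without BM MSC replicate 1 (-1.05, adjusted p = 0.0463), whereas without BM MSC replicate 2 it was -2.72. The class 6 ligands fell, Sema6b to 1.71 and 5.30 CPM from 38.1 and 25.2 CPM (log2 fold change -3.11, SE 0.41, edgeR adjusted p = 0.000434) and Sema6d to 8.64 and 19.2 CPM from 102 and 103 CPM (log2 fold change -2.80, SE 0.51, edgeR adjusted p = 0.0025).

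The other calls of this comparison were at low levels. Sema4f and Slit1 were higher with log2 fold changes of 3.75 and 2.71 and means of 1.09 and 2.65 CPM in BM MSC, and Plxnc1 was lower by a log2 fold change of -1.75. Robo3 had 24 counts over the BM MSC libraries and 0 in P0 Emcn-, at least 5.80-fold higher against 3 counts over the group. Without P0 Emcn- replicate 1 the calls of Sema4f (3.47, adjusted p = 0.0987), Slit1 (2.22, adjusted p = 0.0778) and Robo3 (adjusted p = 0.164) were lost. Plxnc1 was lost without P0 Emcn- replicate 1, BM MSC replicate 1 or BM MSC replicate 2 (adjusted p = 0.0509 to 0.0606), and Robo3 also without BM MSC replicate 1 (adjusted p = 0.0658), so that 3 members were left as lower without P0 Emcn- replicate 1 or BM MSC replicate 1. Leaving out 1 library also added calls, namely Plxna4 and Sema7a without P0 Emcn- replicate 1, Sema3e and, as lower, Sema3g without P0 Emcn- replicate 2, Plxna2 without BM MSC replicate 1 and Plxnb1 without BM MSC replicate 2. Slit3 and Slit2 did not pass the test, at 274 and 544 CPM and 147 and 322 CPM in BM MSC. Nrp2 and Itga1 were the co-receptors called, at means of 614 and 216 CPM against 143 and 18.7 CPM (log2 fold changes 2.20 and 3.65), and Mical2 and Rnd1 were the mediators higher and Srgap1 the mediator lower. These came from 17 co-receptors and 26 mediators tested, beside 11.3% of all genes called higher and 7.45% lower.

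Passaged Emcn- BMECs share a batch with BM MSC in part, since replicate 2 of P1, P2 and P3 was processed in the batch of both BM MSC libraries and replicate 1 in another. Against the mean of P1 to P3, BM MSC were higher in 12 members (28.6%), beside 8.42% of all genes, and lower in 4 (9.52%), beside 5.81%. With the replicate block 9 members were higher and 5 lower, and for that fit the share of all genes was not counted. The test without the block held no term for batch. It took same-numbered libraries of the passages as independent, though their deviations correlated at 0.538 to 0.718. The median log2 fold change was 0.64 over the members and 0.01 over all genes, 17 higher and 6 lower members did not overlap, beside 27.7% and 19.2%, and 14 and 5 passed the adjusted p alone, beside 17.4% and 14.6%. This comparison shares the BM MSC libraries with the preceding one. Sema3d, Unc5b and Unc5c were higher with log2 fold changes of 3.66, 3.19 and 2.42 (SE 0.60, 0.36 and 0.36, edgeR adjusted p = 0.00151, 0.000183 and 0.000783), from means of 12.2, 16.6 and 12.3 CPM in P1 to P3. Without BM MSC replicate 1 the log2 fold change of Sema3d was 2.23 (adjusted p = 0.0484). Sema3c, with a mean of 71.0 CPM in P1 to P3, was called (log2 fold change 2.68, SE 0.77, edgeR adjusted p = 0.0234), but not with the replicate block (2.60, adjusted p = 0.0604) nor without any single library of P1 to P3 (adjusted p = 0.0501 to 0.0557), and without BM MSC replicate 1 its log2 fold change was 0.83 (adjusted p = 0.592). Of the members that were lower, Unc5a ranged from 4.25 to 6.35 CPM with a median of 5.76 CPM over the 6 passaged libraries (log2 fold change -4.56, SE 0.54, edgeR adjusted p = 0.000246), Sema6a from 11.1 to 19.2 CPM with a median of 15.4 CPM (log2 fold change -2.13, SE 0.25, edgeR adjusted p = 0.000232) and Sema6b from 10.6 to 18.5 CPM with a median of 14.4 CPM (log2 fold change -2.15, SE 0.35, edgeR adjusted p = 0.00149). Sema6a, a ligand of Plxna2, had 3.96 and 3.38 CPM in BM MSC. Sema6d ranged from 34.8 to 59.3 CPM with a median of 44.5 CPM in P1 to P3 (log2 fold change -1.78, SE 0.44, edgeR adjusted p = 0.0114), which was lost without BM MSC replicate 1 (-1.33, adjusted p = 0.109).

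Sema7a, Plxna4 and Robo4, genes highest in P0 Emcn+ BMECs, were also higher in BM MSC than in the passaged cultures. Sema7a had 19.0 and 40.2 CPM in BM MSC and 0.862 to 1.64 CPM with a median of 1.00 CPM in P1 to P3 (log2 fold change 4.68, SE 0.53, edgeR adjusted p = 0.000196). Plxna4 had 10.4 and 15.6 CPM against 0.379 to 1.46 CPM with a median of 0.844 CPM (log2 fold change 3.82, SE 0.65, edgeR adjusted p = 0.00185). Both were higher in each BM MSC library than in any P1 to P3 library. Robo4 had 1.09 and 16.1 CPM against 0 to 0.395 CPM with a median of 0.0808 CPM (log2 fold change 6.45, SE 1.22, edgeR adjusted p = 0.00306). The endothelial markers summed to 42.2 CPM in BM MSC replicate 1 and 351 CPM in replicate 2. Without BM MSC replicate 2 the Robo4 call was lost (3.54, adjusted p = 0.137). The part of endothelial transcripts in the Sema7a, Plxna4 and Robo4 levels of BM MSC was not tested. Plxnb1 had 29.6 and 12.6 CPM against 3.78 to 9.43 CPM with a median of 6.54 CPM (log2 fold change 1.63, SE 0.33, edgeR adjusted p = 0.00455), which fell under the fold change limit with the replicate block (1.32, adjusted p = 0.0191) and was lost without BM MSC replicate 1 (0.85, adjusted p = 0.137). Plxnd1 was not called (log2 fold change -0.28, SE 0.36, edgeR adjusted p = 0.606).

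The other members called higher were Sema4f, Sema3g, Sema4d and Slit1, all with means of at most 2.65 CPM in BM MSC and log2 fold changes of 1.69 to 3.29. Sema3g was lost without BM MSC replicate 2 (2.65, adjusted p = 0.0913) and Slit1 without BM MSC replicate 1 (1.30, adjusted p = 0.136). Sema4d was lost with the replicate block (2.54, adjusted p = 0.0563) and without P1 replicate 1, P1 replicate 2, P2 replicate 2, P3 replicate 2 or either BM MSC library (adjusted p = 0.0531 to 0.181). Leaving out 1 library added Slit2 without BM MSC replicate 1 (1.66, adjusted p = 0.0128), Sema3a without P2 replicate 2 or P3 replicate 2 and Robo3 without P2 replicate 1. With the replicate block Ntn1, at 54.8 and 53.8 CPM in BM MSC and a mean of 127 CPM in P1 to P3, was called lower (-1.55, adjusted p = 0.00092). Of the partner genes, Nrp2, Gpc1 and Itga1 were higher among 17 co-receptors, and Farp1, Mical2 and Rnd1 were higher and Srgap1 lower among 26 mediators. Over all genes, 8.42% were called higher and 5.81% lower. Nrp2, Itga1, Mical2 and Rnd1 were higher in BM MSC in both comparisons, and Srgap1, a Slit-Robo GTPase activating protein, was lower in both, at a mean of 17.3 CPM against 90.7 CPM in P0 Emcn- and 76.0 CPM in P1 to P3.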

How the data were processed

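The authors deposited whole-number counts per gene for 15 libraries. By the methods and the submitters' processing notes, reads were aligned with STAR to GRCm38 and quantified with Salmon on Ensembl genes. Whether the counts were rounded by the authors is not given in the sources used here. CPM used the column totals (9914620 to 39718807), and CPM per kb used the union of a gene's exons in GENCODE M21. Tests were edgeR 4.0.16 quasi-likelihood tests in R 4.3.3 over 19401 genes (filterByExpr, minimum count 10, TMM), with 1 coefficient per condition over all 15 libraries, Benjamini-Hochberg adjustment and limits of 0.05 and 1.5 (log2) taken from the study, which set the latter on fold changes shrunken with ashr, whereas here it was set on unshrunken ones. In simulated counts for P0 Emcn+ against P0 Emcn-, with 18299 genes, 182 of 200 genes changed by a log2 fold change of 3 were recovered, with 3 false calls. These counts were drawn independently from the fitted dispersions, without batch effects, and the changed genes were taken above a minimum mean CPM. The simulation therefore does not measure how reliable calls are at low levels or between libraries that share a batch. Alternatives were DESeq2 1.42.0 with and without ashr 2.2.63, RLE factors, no filter, no fold change limit, a replicate block, a fit of only the groups compared, CPM on TMM library sizes, and leaving out each library. The labels, followed here, give 4 batches, and the methods speak of 3. By the labels, same-numbered libraries share a batch among the P0 and lung groups and among the passages, not across these sets, and both BM MSC libraries share the batch of replicate 2 of the passages. Deviations from the group means correlated at 0.139 to 0.335 between P0 and lung groups and at 0.538 to 0.718 between passages. Members, partner genes and marker lists were chosen with earlier results of these data known. In each comparison, up to 12 called members with a mean of at least 5 CPM in the higher group, by size of change, and Plxnd1, which the study lists among tip cell genes, received full statistics, and other genes given values were chosen after their values were seen.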

Additional observations from a re-analysis of the deposited data

How the results depend on the processing

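For P0 Emcn+ against P0 Emcn-, every alternative kept the counts of called members within 1.5 times, with 11 to 13 higher and 9 to 14 lower when 1 library was left out. For lung against P0 Emcn-, 1 member was called lower with DESeq2, with ashr shrinkage, without the filter and without the fold change limit, 0 were called higher in the fit of only the groups compared, and leaving out 1 library gave 1 to 4 higher and 0 to 2 lower. For BM MSC against P0 Emcn-, ashr shrinkage left 3 lower, and leaving out 1 library gave 9 to 10 higher and 3 to 6 lower. For P1 against P0 Emcn-, the fit of only the groups compared left 1 higher and 0 lower, and leaving out 1 library gave 1 to 6 higher and 0 to 5 lower. For P3 against P1, DESeq2 called 1 higher and 1 lower, and 1 was called higher without the filter and in the fit of only the groups compared, while leaving out 1 library gave 0 to 0 in each direction. For BM MSC against P1 to P3, leaving out 1 library gave 9 to 12 higher and 3 to 4 lower. The log2 fold change of Plxnd1 in that comparison, -0.28, turned to 0.33 without BM MSC replicate 1 and ranged down to -1.33 with other libraries left out. Mean CPM moved by more than 1 SD between replicates for 34 of the means per member and condition when TMM library sizes were used. The cause was not tested for any of these. The share of all genes was counted for the main fit only, so counts of members under other settings have no reference.

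With the replicate block, which pairs libraries of the same batch among P0 and lung and among the passages, 1 member, Ntn4, was called higher from P1 to P3. The block also added Sema3a in lung, and against P1 to P3 it gave 9 higher and 5 lower in BM MSC. It changed no call for P0 Emcn+. It pairs nothing between P0 Emcn- and P1 or BM MSC, which share no batch, and there bears only on the estimates of spread and of batch within each set (Sema3e at P1 was added, 2.46, adjusted p = 0.035). Groups of 2 libraries and levels near the limit of 3 counts bound what could be detected.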
